A study of Homo sapiens with 4 samples.

Results

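The COUP transcription factors and their relatives were represented by 6 genes of the NR2 group of nuclear receptors, chosen by gene name, out of 60234 genes in the count table. NR2F1 encodes COUP-TFI, NR2F2 encodes COUP-TFII and NR2F6 encodes EAR2, NR2C1 and NR2C2 encode the testicular receptors TR2 and TR4, and NR2E1 encodes the tailless homolog TLX. RNA was sequenced from 4 sorted populations of the human embryonic stem cell (hESC) line NKX2.5:GFP, with 1 library per condition. In these cells GFP reports activity of the NKX2-5 locus, which encodes a transcription factor of the early heart. Cardiac differentiation cultures received 1 µM retinoic acid (RA) or its solvent DMSO (control, CTR) between day 4 and day 7, and were sorted at day 31 by the description of the series or day 30 by the methods into GFP-positive and GFP-negative cells. All libraries came from the same reporter line, so the gate selected NKX2-5 expression rather than a defined heart cell, and a difference between libraries has no replicate check.

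COUP transcription factors are called orphan receptors because no hormone was known for them when they were found. They bind paired copies of the half-site AGGTCA in DNA and compete there with the receptors for retinoids, thyroid hormone and vitamin D, usually as repressors but at some genes as activators. COUP-TFI and COUP-TFII are classical retinoid-inducible genes. COUP-TFII is known for its role in the atria of the heart, in veins and in mesenchyme, and COUP-TFI for its role in the patterning of the brain. TR2 and TR4 bind the same kind of repeats and are broadly expressed, and TLX keeps neural stem cells of the brain and retina dividing.

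The members have related forms of the part of the receptor that reads DNA, which is not identical in all of them. The coding sequence of the first zinc finger's recognition stretch is shown for all 6 genes from the GRCh37 genome, because it lines up in every member, with capitals for bases that differ from NR2F2.
NR2F1: tgcgagggctgcaaAagTttcttcaagAgG
NR2F2: tgcgagggctgcaagagcttcttcaagcgc
NR2F6: tgcgagggctgcaagagcttTttcaagcgA
NR2C1: tgTgaAggctgcaaAGgAttTttTaaAAgA
NR2C2: tgTgaAggTtgcaaAGgTttcttcaaAAgG
NR2E1: tgcgaCggctgcTCAGgTttTttcaaAcgG
Of these 30 bases, 4 differed between NR2F1 and NR2F2, 2 between NR2F6 and NR2F2, and 9 or 10 between NR2F2 and the TR and TLX genes. Bases can differ without a change of amino acid, so these counts do not rank the proteins by likeness. Over the whole coding sequence, 84.2% of aligned bases were identical between NR2F1 and NR2F2. The longest identical run in their whole canonical transcripts had 35 bases. Reads were 75 bases long, and no pair of members shared an identical stretch of 75 bases in these transcripts. Reads that lie in coding sequence could thus be told apart between members.

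NR2F1 and NR2F2 are also alike just before their starts. The 250 bases before the canonical start of each gene are shown in GRCh37, on the gene's own strand, with capitals for the sequence AGTTCA, a variant of the half-site.
NR2F1, chr5:92918678-92918927, plus strand: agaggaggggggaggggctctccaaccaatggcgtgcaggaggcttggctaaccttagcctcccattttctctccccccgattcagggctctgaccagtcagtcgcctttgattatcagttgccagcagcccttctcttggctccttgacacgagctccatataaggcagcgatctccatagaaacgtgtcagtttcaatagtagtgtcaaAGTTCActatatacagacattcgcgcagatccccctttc
NR2F2, chr15:96873679-96873928, plus strand: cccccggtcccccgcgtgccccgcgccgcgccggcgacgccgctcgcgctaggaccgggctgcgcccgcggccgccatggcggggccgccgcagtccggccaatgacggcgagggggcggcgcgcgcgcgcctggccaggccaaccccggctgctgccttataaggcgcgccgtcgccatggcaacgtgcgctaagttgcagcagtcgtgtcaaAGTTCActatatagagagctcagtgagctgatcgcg
Neither window overlapped an annotated exon, and the NR2F2 window lay inside the longer annotated extent of that gene. Both held the 20-base run gtgtcaaAGTTCActatata, which began 46 bases before the start of NR2F1 and 43 bases before that of NR2F2. Among the 250-base windows of 19852 protein-coding genes, searched on both strands, this run was found in 2 (0.0101%), NR2F1 and NR2F2 themselves. The comparison was chosen after the sequences were seen. At least 1 copy of AGTTCA was found in 6.73% of the windows and of AGGTCA in 9.92%, and no window of the 6 members held AGGTCA. The match describes sequence only, and no binding was measured here.

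Reads per library summed to between 26222787 and 28643091 in 3 libraries and to 4371101 in CTR GFP-negative cells, where 3 reads equal 0.639 CPM against 0.105 to 0.117 CPM elsewhere. CPM are TMM-scaled counts, set to a common library total, and every interval is a 95% interval for counting error only. NKX2-5 was at 463 CPM and 593 CPM in the GFP-positive libraries with RA and of the control, and at 9.74 CPM and 14.5 CPM in the GFP-negative libraries, in the direction of their labels. All 10 cardiomyocyte markers, among them MYH6 and ACTN2, were higher by at least 2-fold in the GFP-positive library of each treatment. Such list counts run over genes with at least 4 reads in either library, where 10.6% of all genes were higher and 12.8% lower in the GFP-positive fraction of the control, and 6.74% higher and 9.29% lower with RA. The GFP-negative libraries held a mixture, with summed CPM of 62300 (RA) and 32710 (CTR) for 12 fibroblast and mesenchyme markers against 533 and 972 for the cardiomyocyte markers. In such bulk samples, fewer cells of a type and less RNA per cell cannot be told apart.

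NR2F2 was the member with the largest RA difference. It had 14281 reads (534 CPM, interval 525 to 543) in RA GFP-positive cells, 773 reads (27.0 CPM, 25.1 to 28.9) in CTR GFP-positive cells, 5496 reads (214 CPM, 209 to 220) in RA GFP-negative cells and 429 reads (91.4 CPM, 82.9 to 100) in CTR GFP-negative cells. The RA GFP-positive library stood highest and the CTR GFP-positive library lowest, and no interval overlapped another. With RA, NR2F2 was 19.8-fold higher in GFP-positive cells (18.4 to 21.3), a difference of 4.26 on the log2(CPM + 1) scale that ranked 5 from the top among 11186 genes that reached 10 CPM in 1 or both libraries. In GFP-negative cells it was 2.34-fold higher (2.12 to 2.59), ranking 399 of 11606 genes. The GFP-positive ratio was thus 8.44 times the GFP-negative ratio (7.47 to 9.54).

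The order of the fractions was opposite in the treatments for NR2F2. Relative to GFP-negative cells, the GFP-positive level was 3.39-fold lower in the control (3.00 to 3.82). With RA it was instead the higher of the pair, by 2.49-fold (2.42 to 2.57).

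NR2F1 had 1439 reads (53.8 CPM, 51.1 to 56.7) in RA GFP-positive cells, 671 reads (23.4 CPM, 21.7 to 25.3) in CTR GFP-positive cells, 1509 reads (58.8 CPM, 55.9 to 61.8) in RA GFP-negative cells and 463 reads (98.6 CPM, 89.8 to 108) in CTR GFP-negative cells. The control fractions marked the ends of its range, and the intervals of the RA libraries overlapped between them. NR2F1 was 2.30-fold higher with RA in GFP-positive cells (2.10 to 2.52) and 1.68-fold lower with RA in GFP-negative cells (1.51 to 1.86). The RA differences therefore pointed in opposite directions, at 1.17 and -0.74 on the log2(CPM + 1) scale. Between fractions, NR2F1 was 4.21-fold lower in GFP-positive cells of the control (3.73 to 4.75) and 1.09-fold lower with RA (1.02 to 1.18).

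NR2F6, the third COUP-TF gene, had the smallest ratio of highest to lowest level among the 6 members. Its levels were 175 CPM (170 to 180) in RA GFP-positive, 203 CPM (198 to 208) in CTR GFP-positive, 223 CPM (218 to 229) in RA GFP-negative and 163 CPM (152 to 175) in CTR GFP-negative cells. The intervals of the lowest pair, CTR GFP-negative and RA GFP-positive, overlapped. With RA it was 1.16-fold lower in GFP-positive cells (1.11 to 1.20) and 1.37-fold higher in GFP-negative cells (1.27 to 1.48), both below 2-fold.

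**Figure D1:**
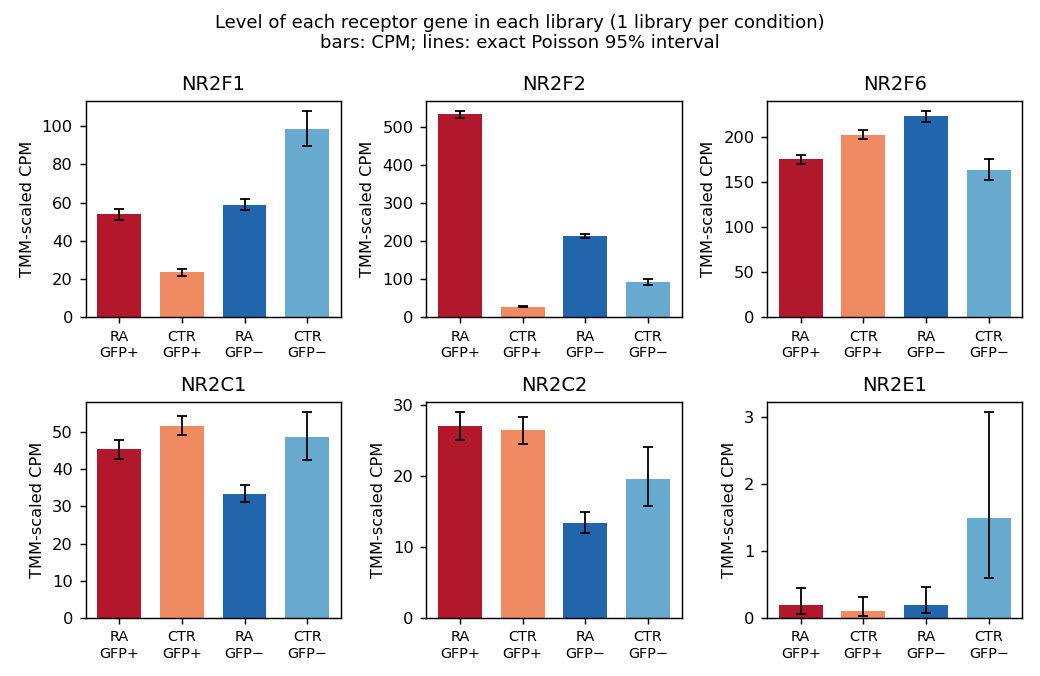
Level of each of the 6 receptor genes in TMM-scaled CPM (y axis, its own range for each gene, from 0) in the 4 libraries (x axis), with exact Poisson 95% intervals as lines. NR2F2 stands at 534 CPM in RA GFP-positive cells and at 27.0 CPM in CTR GFP-positive cells, whereas NR2F6 stays between 163 and 223 CPM.

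The TR genes had no 2-fold RA difference in either fraction. NR2C1 (TR2) was at 45.4 CPM (42.9 to 48.0) in RA GFP-positive, 51.8 CPM (49.2 to 54.5) in CTR GFP-positive, 33.5 CPM (31.3 to 35.8) in RA GFP-negative and 48.8 CPM (42.7 to 55.5) in CTR GFP-negative cells. The RA GFP-negative library lay below the others, whose intervals overlapped in part. NR2C1 was 1.46-fold lower with RA in GFP-negative cells (1.25 to 1.69). In GFP-positive cells its difference of -0.19 changed sign to 0.0044 when all libraries were thinned to the depth of the smallest.

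NR2C2 (TR4) was at 27.0 CPM (25.1 to 29.0), 26.4 CPM (24.6 to 28.4), 13.4 CPM (12.0 to 14.9) and 19.6 CPM (15.8 to 24.0) in the same order of libraries. The GFP-positive libraries overlapped and lay above both GFP-negative libraries. With RA, the GFP-positive level was 2.02 times the GFP-negative level (1.77 to 2.30), which on the log2(CPM + 1) scale came to 0.96 and lay just below the threshold of 1. It passed it with upper-quartile scaling (1.02), with library size after removal of mitochondrial and the 10 most abundant genes (1.01) and with a pseudocount of 0.25 CPM (1.00). Its counts are uncertain, because 61.9% of its 11822 exon bases in the GENCODE annotation lie under exons of genes on the other strand, mostly MRPS25 (7157 bases), and the authors counted without strand. The RA ratio of NR2C2 in GFP-positive cells was 1.02 (0.922 to 1.13), with an interval on both sides of 1, and its sign changed with scaling by library size or upper quartile and with thinning.

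NR2E1 (TLX) was close to the limit of detection. It had 5 reads in RA GFP-positive, 3 in CTR GFP-positive, 5 in RA GFP-negative and 7 in CTR GFP-negative cells, or 0.187, 0.105, 0.195 and 1.49 CPM. The CTR GFP-negative library, the shallowest, had the highest level, with an interval of 0.599 to 3.07 CPM that did not reach the others. With RA the GFP-negative ratio was 0.131 (0.0327 to 0.478), and the GFP-positive ratio was 1.79 (0.347 to 11.5). Neural and eye field markers, the cells in which TLX is known, moved the same way in GFP-negative cells: their summed level over 13 genes was 564 CPM in the control and 223 CPM with RA, and 10 of 13 were lower by at least 2-fold with RA, among them DCT, PAX6 and SIX3, where 6.43% of all genes with 4 reads were higher and 5.63% lower. The part of these cells in the NR2E1 difference was not tested.

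**Figure D2:**
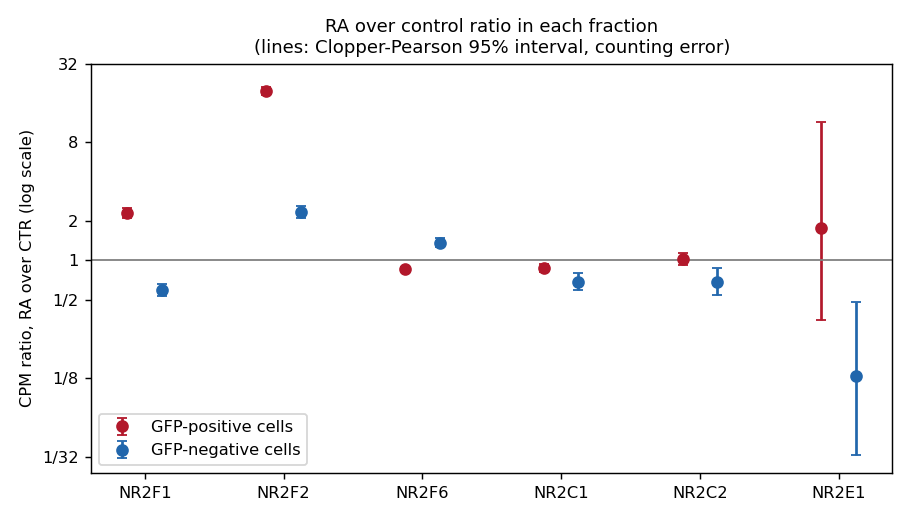
Ratio of CPM with RA over control (y axis, log scale) for each gene (x axis) in GFP-positive (red) and GFP-negative (blue) cells, with Clopper-Pearson 95% intervals. NR2F2 lies above 1 in both fractions (19.8 and 2.34), and NR2F1 lies above 1 in GFP-positive cells (2.30) and below 1 in GFP-negative cells (0.596).

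Counts of members are best read against all genes. Among genes that reached 10 CPM in 1 or both libraries, as 5 of the 6 members did in each comparison, a difference of at least 1 on the log2(CPM + 1) scale was taken as 2-fold. In GFP-positive cells 2 members, NR2F1 and NR2F2, were higher with RA and 0 lower, against 4.14% of 11186 genes higher and 1.67% lower. In GFP-negative cells 1 member, NR2F2, was higher with RA and 0 lower, against 4.95% of 11606 genes higher and 3.18% lower. That split of 574 higher and 369 lower genes depended on the scaling, being 448 and 512 by library size alone, 446 and 485 by library size without mitochondrial and the 10 most abundant genes, and 470 and 444 by upper quartile. Between the fractions of the control, 0 members were higher and 2, NR2F1 and NR2F2, lower in GFP-positive cells, against 11.9% of 11806 genes higher and 13.3% lower. With RA, 1 member, NR2F2, was higher in GFP-positive cells and 0 lower, against 9.97% of 11850 genes higher and 12.4% lower, and NR2C2 became the second higher member under the 3 settings given with its value. The median difference of the members was 0.03 with RA in GFP-positive cells, beside 0.02 over all genes, and -0.52 in GFP-negative cells, beside 0.08. The GFP-positive and GFP-negative comparisons with RA used separate control libraries, whereas each comparison between fractions shared its libraries with them.

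The make-up of the COUP-TF transcripts shifted with RA, as read from shares within a library, which need no scaling between libraries. NR2F2 took 90.8% of the NR2F1 and NR2F2 reads (90.4% to 91.3%) in RA GFP-positive cells and 53.5% (50.9% to 56.1%) in CTR GFP-positive cells. In GFP-negative cells it took 78.5% (77.5% to 79.4%) with RA and 48.1% (44.8% to 51.4%) in the control. The RA libraries were above the control of their own fraction, and the 2 control intervals overlapped. Per kb of exon the NR2F2 share was lower throughout, at 87.0%, 43.8%, 71.1% and 38.5% in RA GFP-positive, CTR GFP-positive, RA GFP-negative and CTR GFP-negative cells, in the same order.

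NR2F6 took 80.1% of the reads of the 3 COUP-TF genes in CTR GFP-positive cells (79.2% to 81.0%) and 23.0% with RA (22.4% to 23.6%). In GFP-negative cells its share was 45.0% with RA and 46.2% in the control, with overlapping intervals (44.1% to 45.9% and 43.8% to 48.7%). Per kb of exon its share was 88.9% in CTR GFP-positive, 41.1% in RA GFP-positive, 64.4% in RA GFP-negative and 62.7% in CTR GFP-negative cells. The summed level of the 3 genes was 763 CPM in RA GFP-positive, 253 CPM in CTR GFP-positive, 496 CPM in RA GFP-negative and 353 CPM in CTR GFP-negative cells. The TR genes together stood at 72.4, 78.2, 46.8 and 68.4 CPM in the same libraries.

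**Figure D3:**
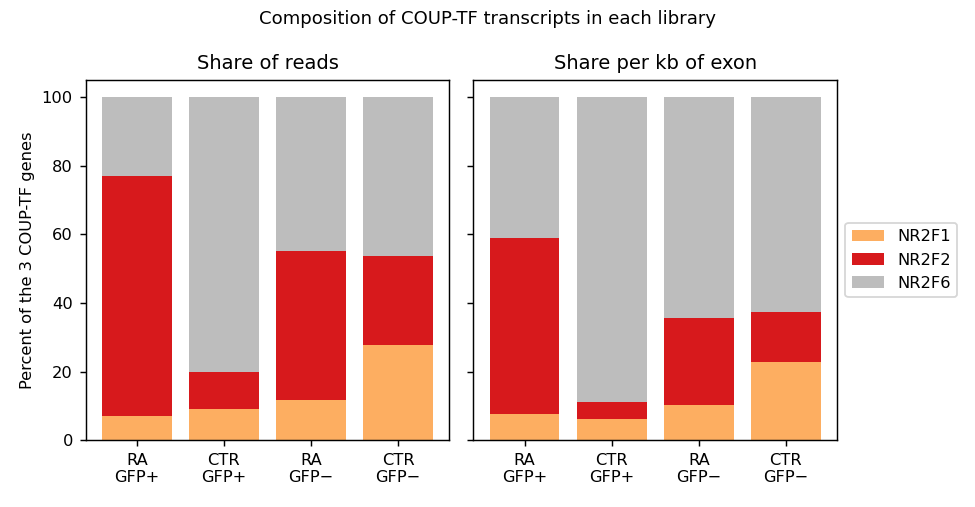
Share of NR2F1, NR2F2 and NR2F6 among the 3 COUP-TF genes in each library (y axis, percent; x axis, library), as reads on the left and per kb of exon on the right. NR2F6 makes up 80.1% of the reads in CTR GFP-positive cells, and NR2F2 makes up 70.0% in RA GFP-positive cells.

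Levels of 47 nuclear receptor genes were ranked by CPM per kb of exon. In CTR GFP-positive cells NR2F6 ranked 1 at 76.5 CPM per kb, while NR2F1 ranked 13 at 5.34 and NR2F2 ranked 16 at 4.17. In RA GFP-positive cells NR2F2 ranked 1 at 82.5 CPM per kb (81.1 to 83.8), followed by NR2F6 at 66.0 (64.1 to 67.9) and NR4A1 at 65.9, a close pair within counting error. In the GFP-negative cells NR2F6 ranked 1 in both libraries, with NR2F2 at rank 2 with RA and NR2F1 at rank 2 in the control. With the length of the canonical transcript in place of all exons, a choice made after seeing the data, NR4A1 ranked 1 in RA GFP-positive, CTR GFP-positive and RA GFP-negative cells. NR2F6 then ranked 3, 2 and 2 in these libraries and 1 in CTR GFP-negative cells. NR2F2 ranked 2 in RA GFP-positive and 3 in RA GFP-negative cells, and NR2F1 ranked 3 in CTR GFP-negative cells. NR2C1 ranked between 9 and 14, NR2C2 between 18 and 25 and NR2E1 between 27 and 44 per kb of exon.

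The other nuclear receptors showed what else differed in this superfamily. Of 41 other receptor genes, 38 had at least 4 reads in either GFP-positive library, and 7 of these were higher and 0 lower by at least 2-fold with RA, with a median difference of 0.31 beside 0.0023 over all 26551 genes with such reads, of which 3.35% were higher and 1.4% lower. Of the 20 that reached 10 CPM, 2 were higher and 0 lower, against 4.14% and 1.67% of all 11186 genes at 10 CPM. NR4A1, an immediate early receptor, was 2.07-fold higher (2.01 to 2.14), below the ratio of NR2F2. RXRG, a retinoid X receptor, was at 13.2 CPM with RA against 23.5 CPM for CTR (ratio 0.563, 0.493 to 0.641). In GFP-negative cells 15 of 40 were higher and 1 lower, against 6.43% and 5.63% of all genes with 4 reads, and 8 of 19 were higher and 0 lower at 10 CPM, against 4.95% and 3.18%. Among those at 10 CPM the largest differences were in HNF4A, a liver and gut receptor, on 458 and 3 reads (ratio 27.9, 9.50 to 136), THRB, a thyroid hormone receptor, on 437 and 7 reads, and NR4A2 on 335 and 10 reads. RARB, a retinoic acid receptor that is itself a known RA target, was 1.54-fold higher in GFP-positive cells (1.35 to 1.76) and 5.69-fold higher in GFP-negative cells (2.96 to 12.6).

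**Figure D4:**
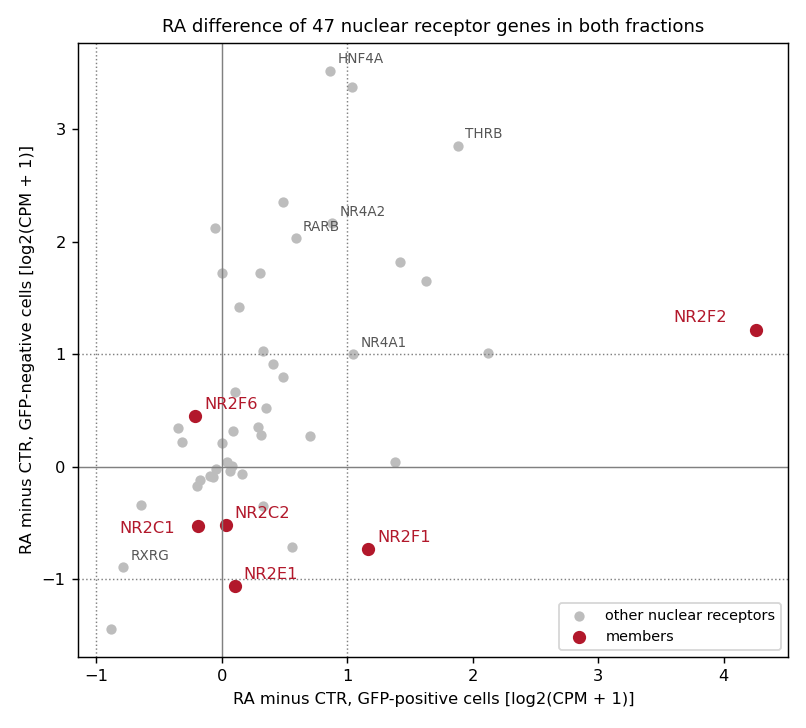
RA minus CTR difference on the log2(CPM + 1) scale in GFP-positive cells (x axis) and GFP-negative cells (y axis) for 47 nuclear receptor genes, members in red and the rest in grey; dotted lines mark differences of 1 in either direction. NR2F2 lies farthest to the right at 4.26, and NR2F1 lies to the right of 1 but at -0.74 on the y axis.

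Cofactors that COUP-TF, TR and TLX proteins are known to bind differed less than NR2F2 did. Of the 17 cofactor genes, 0 differed by at least 2-fold with RA in GFP-positive cells, against 3.35% of all genes with 4 reads higher and 1.4% lower, and their median difference was 0.14 beside 0.0023. ZFPM1, one of the FOG proteins that bind COUP-TFs and GATA factors, had the largest difference, at 122 CPM with RA against 66.5 CPM for CTR (1.84-fold, 1.74 to 1.95). NCOA1, a coactivator, followed at 1.44-fold (1.36 to 1.52) and NRIP1, a corepressor, at 1.33-fold (1.21 to 1.46). In GFP-negative cells 1 of 17 was higher, against 6.43% of all genes, namely BCL11A, also named COUP-TF-interacting protein, on 407 and 33 reads (2.26-fold, 1.58 to 3.32).

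Genes that have been placed under COUP-TF control were read as lists written from background knowledge, with earlier results of these data known. The lists were thus not independent of the data, and their counts are a description only. Of 11 genes described as activated, 5 were higher and 0 lower by at least 2-fold with RA in GFP-positive cells, against 3.35% and 1.4% of all genes with 4 reads, and their median was 0.71 beside 0.0023. SLN, which encodes the atrial calcium pump regulator sarcolipin, was at 18.0 CPM with RA against 0.907 CPM for CTR (19.9-fold, 13.4 to 30.7), NPPA, the atrial natriuretic peptide gene, at 131 and 37.8 CPM, and ANGPT1, a vessel growth factor, at 241 and 73.7 CPM. NRP1 and NRP2, neuropilin receptors on the same list, were lower, at 237 and 347 CPM and at 426 and 744 CPM. Whether NRP1 belongs among the activated genes was not checked here. In GFP-negative cells 3 of 11 were higher and 0 lower, against 6.43% and 5.63% of all genes, and SLN (3.58-fold, 2.82 to 4.62), ANGPT1 (2.81-fold, 2.22 to 3.59) and FLT4, a lymphatic endothelial receptor (2.60-fold, 2.12 to 3.23), led. NPPA is partly overlapped by an antisense gene, so that its counts are uncertain.

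Of 9 genes described as repressed, 3 were higher and 3 lower by at least 2-fold with RA in GFP-positive cells, against the same 3.35% and 1.4%. The lower genes were ventricular: HEY2, a Notch effector, at 8.15 CPM with RA against 66.0 CPM for CTR, IRX4 at 38.3 and 241 CPM, and MYL2, the ventricular light chain, at 4.00 and 20.2 CPM. FOXC1, a forkhead factor of mesenchyme and vessels, was higher at 88.5 and 12.3 CPM (7.21-fold, 6.44 to 8.08), as were the Notch ligand gene JAG1 at 535 and 91.1 CPM and the Notch effector gene HEYL at 13.8 and 1.85 CPM. The list thus had no single direction, and in GFP-negative cells the same 3 genes, HEYL, JAG1 and FOXC1, were higher and 0 were lower, against 6.43% and 5.63%. No binding or loss of a COUP-TF was measured, so these values stand beside those of NR2F2 without linking them.

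Divergent transcripts start near both inducible COUP-TF genes on the opposite strand. NR2F2-AS1 had 276 reads in RA GFP-positive, 34 in CTR GFP-positive, 89 in RA GFP-negative and 5 in CTR GFP-negative cells. It was 8.70-fold higher with RA in GFP-positive cells (6.08 to 12.8) and 3.26-fold higher in GFP-negative cells (1.34 to 10.3), the directions of NR2F2. NR2F1-AS1 had 93, 7, 118 and 25 reads in the same order. Its ratio was 14.2 in GFP-positive cells (6.64 to 36.4) and 0.864 in GFP-negative cells (0.557 to 1.39), the latter with an interval on both sides of 1. NR2F1-AS1 shares 158 exon bases with NR2F1, whereas NR2F2-AS1 shares none with NR2F2.

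The nearest protein-coding neighbours did not follow the COUP-TF genes by 2-fold with RA. FAM172A, which lies 23.1 kb beyond NR2F1, was at 20.8 CPM with RA against 22.3 CPM for CTR of GFP-positive cells, and ARRDC3, 2240 kb to the other side, at 42.0 and 29.2 CPM. ARRDC4, 1620 kb beyond NR2F2, was at 164 and 196 CPM, and MCTP2, 1842 kb to the other side, had 29 and 28 reads. NR2F2 lies at chr15:96869167-96883492 and NR2F1 at chr5:92918928-92930317 on the plus strand of GRCh37.

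Other genes had profiles like those of the members over the 4 libraries, measured as the distance between mean-centred log2(CPM + 1) values among 12160 genes. Among the nearest to NR2F2 were MYLK, the smooth muscle myosin kinase gene (distance 0.44), C7, a complement gene (0.71), and MYH11, the smooth muscle myosin heavy chain gene (0.75). MYLK was at 271 CPM in RA GFP-positive, 18.4 in CTR GFP-positive, 125 in RA GFP-negative and 68.8 in CTR GFP-negative cells. C7 was at 1007, 78.8, 687 and 168 CPM in the same order. Like NR2F2, each of these 3 genes was highest in RA GFP-positive cells, which follows from their choice by profile.

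Nearest to NR2F1 were CEROX1 (0.25), ZFHX4 (0.34), MTCL1 (0.37), LACC1 (0.38) and SEMA3C, a semaphorin gene (0.39). SEMA3C was at 54.4, 25.7, 85.5 and 119 CPM in RA GFP-positive, CTR GFP-positive, RA GFP-negative and CTR GFP-negative cells, lowest in CTR GFP-positive cells as NR2F1 was. For NR2F6, NR2C1 and NR2C2 the nearest genes were PHF11 (0.024), LINC00641 (0.013) and SMIM11 (0.040), followed by GMEB1, BRICD5 and ZNF584. All these genes were chosen by profile, so the high and low points they share with a member follow from the choice. Over 4 libraries such likeness is a description only.

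**Figure D5:**
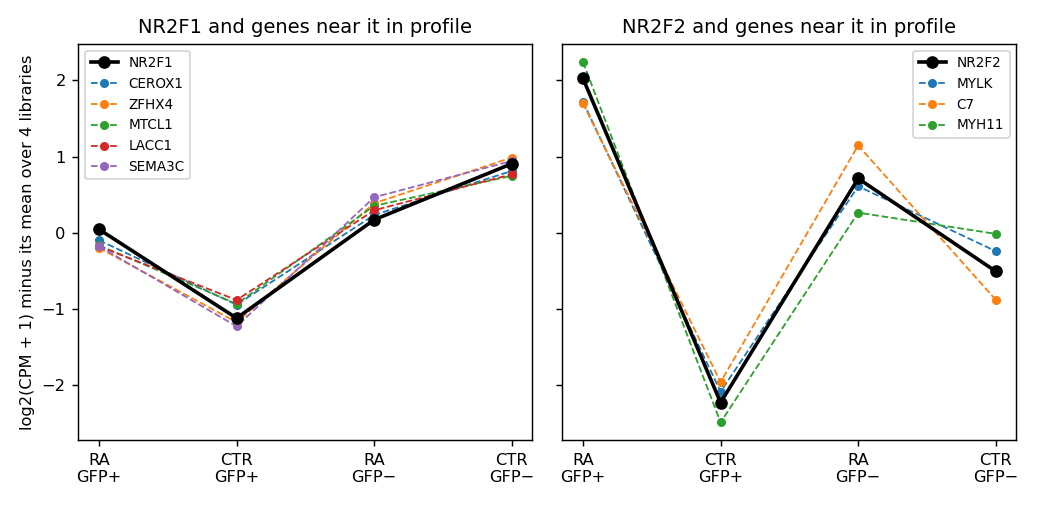
log2(CPM + 1) minus its mean over the 4 libraries (y axis) in each library (x axis) for NR2F1 (left, black) and NR2F2 (right, black) and for the genes named beside them as nearest in profile (dashed, 5 for NR2F1 and 3 for NR2F2). The NR2F2 group peaks in RA GFP-positive cells, and the NR2F1 group is lowest in CTR GFP-positive and highest in CTR GFP-negative cells. Both patterns follow from the choice of genes by profile.

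Most fibroblast and mesenchyme markers were higher with RA in GFP-positive cells, as NR2F2 was. In each of the other marker lists, most genes were not 2-fold different there. Of 12 fibroblast and mesenchyme markers, 10 were higher and 2, WT1 and TBX18, lower by at least 2-fold with RA in GFP-positive cells (8 and 2 of the 10 that reached 10 CPM). Of all genes 3.35% were higher and 1.4% lower at 4 reads, and 4.14% and 1.67% at 10 CPM. Their summed level was 15317 CPM with RA against 4032 CPM for CTR. PDGFRB was 5.31-fold higher (4.88 to 5.78), LUM 5.06-fold (4.47 to 5.75) and DCN 4.64-fold (4.27 to 5.04), all below the 19.8-fold of NR2F2. Between the RA fractions, 11 of the 12 markers were at least 2-fold lower on the GFP-positive side and 1, PDGFRA, was higher, whereas NR2F2 was 2.49-fold higher. The summed level of 10 endothelial markers was 112 CPM with RA against 89.9 CPM for CTR of GFP-positive cells, with 2 of 10 higher and 0 lower, and in the latter ESAM and LYVE1 were at 0. Gut and liver endoderm markers, 11 of which were matched and which share SOX17 with the endothelial list, summed to 696 and 567 CPM there. Most of this was GATA4, which is also a gene of heart muscle, and the other 10 genes summed to 93.6 and 36.9 CPM. By 2-fold, 3 of the 11 were higher and 1 lower, with AFP, an endoderm gene, at 604 and 8 reads and TTR, the transthyretin gene, at 11 and 94 reads. Pluripotency markers, 8 in number, summed to 72.8 and 59.7 CPM, of which PODXL, a gene not limited to such cells, made up 59.6 and 41.0 CPM. The other 7 summed to 13.3 CPM with RA against 18.7 CPM for CTR, the opposite order. By 2-fold 0 were higher and 1, SALL4, lower, at 7.93 and 17.7 CPM, and NANOG was at 0 in the control. The cardiomyocyte markers summed to 17728 CPM with RA against 19858 CPM for CTR, with 0 of 10 different by 2-fold.

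In GFP-negative cells the fibroblast and mesenchyme markers summed to 62300 CPM with RA against 32710 CPM for CTR, with 5 of 12 higher and 1 lower, against 6.43% and 5.63% of all genes with 4 reads, beside the 2.34-fold of NR2F2 and the opposite direction of NR2F1. The cardiomyocyte markers summed to 533 CPM with RA against 972 CPM for CTR, with 0 of 10 higher and 3 lower. Their median difference was -0.88, the direction of NR2F1. The neural and eye field list had that direction too, with a median of -2.31. Between the control fractions NR2F1 was 4.21-fold lower in GFP-positive cells, where the cardiomyocyte markers were higher. Endothelial markers summed to 498 and 411 CPM, with 4 of 10 higher and 0 lower, and without EGFL7, at 144 and 80.9 CPM, the other 9 summed to 354 and 330.1 CPM. Gut and liver endoderm markers summed to 1147 and 448 CPM, or 955 and 235 CPM without GATA4, with 7 of 11 higher and 1, TTR, lower at 11.7 and 73.0 CPM. Pluripotency markers summed to 455 and 650 CPM, of which PODXL made up 382 and 625 CPM. The other 7 summed to 72.6 and 24.7 CPM, and 3 of the 8 were higher and 0 lower with RA. FOXA2, POU5F1 and NANOG were at 0 in the control. The neural and eye field list, lower there as given for NR2E1, summed in GFP-positive cells to 382 CPM with RA against 293 CPM for CTR, most of it NES. Without NES the other 12 genes summed to 18.7 and 27.4 CPM, the opposite order, and by 2-fold 1 of the 13 was higher and 3 lower. The part of these cell types in the differences of NR2F1 and NR2F2 was not tested.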

How the data were processed

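Sorted cells of the NKX2.5:GFP hESC line were profiled in 4 libraries, 1 per condition. The authors prepared strand-specific libraries, sequenced paired reads of 75 bases, aligned them to hg19 with GSNAP, sorted them with SAMtools 0.1.18 and counted reads per Ensembl gene with HTSeq 0.6.1p1 without strand. The deposited values are these raw counts, as the authors made them, with no normalization. Reads wholly on exon bases shared by genes are left uncounted in this mode, which lowers counts of overlapped genes such as NR2C2. The Ensembl release was not given in the sources used here. Of the 60234 identifiers, 43521 were matched to gene names. Coordinates, exon lengths and sequences came from GRCh37 with the GENCODE annotation lifted to it. NR2E3 was not analysed here, and some genes that the rule for named genes would give are not reported here.

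TMM factors of the 4 libraries (0.951, 1.00, 0.979 and 1.07 for RA GFP-positive, CTR GFP-positive, RA GFP-negative and CTR GFP-negative cells) were computed with edgeR 4.0.16 in R 4.3.3 and used to turn counts into CPM. With 1 library per condition, conditions were compared without a test. Differences were taken on the log2(CPM + 1) scale, which understates differences of low genes. A difference of at least 1 among genes that reached 10 CPM in 1 or both libraries was called 2-fold, while lists were counted over genes with at least 4 reads in either library. CPM carry exact Poisson intervals, ratios and shares carry Clopper-Pearson intervals, and ratios of ratios carry log-normal intervals, all at 95%. Amplified reads are not independent molecules, so that both the intervals and the 3-read floor describe counting error alone. The procedure was tested on simulated counts with Poisson error alone. These held no variation between libraries, so that test says nothing about replicate spread.

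The members and lists were chosen with earlier results of these data known. Named were all members, the 3 largest differences per list among genes with at least 10 CPM, divergent transcripts, nearest neighbours and the 5 nearest profiles per member. MYL2, JAG1, HEYL, NRP1, NRP2, WT1, TBX18, PDGFRA, ESAM, LYVE1, FOXA2, POU5F1, NANOG and GATA4 were also named after their values were seen. Alternatives were other scalings (library size, DESeq2 1.42.0, upper quartile, TMM of the pair, and library size after removal of mitochondrial and the 10 most abundant genes), a pseudocount of 0.25 or 5 CPM, other filters and thinning to 4371101 reads. Figures were drawn with matplotlib 3.10.9.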

Additional observations from a re-analysis of the deposited data

Results flagged for a closer look

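For 4 members the RA difference pointed one way in GFP-positive and the other way in GFP-negative cells. Each fraction had 1 library per treatment, so the difference between fractions was not tested. Opposite signs were found for 42.2% of the 10385 genes that reached 10 CPM in both comparisons, of which 5 were members and 3 of these, NR2F1, NR2F6 and NR2C2, had opposite signs. NR2E1, the other member with opposite signs, did not reach 10 CPM.

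The RA difference of NR2F1 was 1.17 in the GFP-positive fraction and -0.74 in the GFP-negative fraction on the log2(CPM + 1) scale, a difference between fractions of 1.90 (ratio of ratios 3.85, interval 3.35 to 4.43). NR2F6 differed by -0.21 and 0.45, or -0.66 between fractions. NR2C2 differed by 0.03 and -0.52, or 0.55 between fractions, where the GFP-positive value changed sign with scaling and its ratio of 1.02 had an interval (0.922 to 1.13) on both sides of 1. NR2E1 differed by 0.10 and -1.06, or 1.16 between fractions, on 3 to 7 reads per library, where the GFP-positive ratio of 1.79 (0.347 to 11.5) likewise had an interval on both sides of 1. Its GFP-negative value was -0.32 with a pseudocount of 5 CPM and -1.97 with one of 0.25 CPM.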

How the results depend on the processing

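No paired analysis was possible because each condition has 1 library, and no library could be left out. The depth of CTR GFP-negative cells limits values such as those of NR2E1 (7 reads) and NR2F2-AS1 (5 reads). NR2F2 kept its direction under all 8 alternatives in both fractions (4.08 to 4.29 and 1.09 to 1.23, main 4.26 and 1.22), and a pseudocount of 5 CPM gave 4.08 in GFP-positive cells, since a larger pseudocount shrinks differences from a low control. NR2F1 ranged from 1.05 to 1.23 in GFP-positive and from -0.87 to -0.70 in the GFP-negative fraction, and its difference between fractions from 1.75 to 2.09 under 7 alternatives. NR2C1 in GFP-positive cells (-0.19) turned to 0.0044 with thinning, and in GFP-negative cells it moved from -0.53 to -0.82. Its difference between fractions ranged from 0.31 to 0.82 under 7 alternatives (main 0.34). The cause was not tested. Scaling by library size alone moved the median difference of all genes from 0.08 to -0.06 in the RA comparison of GFP-negative cells and from 0.08 to -0.03 between control fractions.

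Without a filter, and equally with a filter of 1 CPM, more genes were tested, and 889 genes were higher and 371 lower with RA in GFP-positive cells (main 463 and 187), 1620 and 1418 in GFP-negative cells (574 and 369), 2646 and 3191 between fractions of the control (1406 and 1567), and 1847 and 2546 between fractions with RA (1182 and 1474). A pseudocount of 5 CPM left 112 genes lower with RA in the GFP-positive fraction and 208 in the GFP-negative fraction. Per kb of exon, the NR2F2 share of NR2F1 and NR2F2 was 87.0% in RA GFP-positive, 43.8% in CTR GFP-positive, 71.1% in RA GFP-negative and 38.5% in CTR GFP-negative cells, and per kb of canonical transcript, an alternative chosen after seeing the data, 87.8%, 45.6%, 72.6% and 40.2%, since NR2F2 has the longer transcript.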
